A study of Mus musculus with 6 samples.

Results

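The C-type lectin receptors described here are 10 genes of myeloid cells, Clec4a1, Clec4a2, Clec4a3, Clec4b1, Clec4b2, Clec4e, Clec4n, Clec5a, Clec7a and Clec12a. They were chosen by name with earlier results of these data known, as were the other gene lists below. A count of called genes in such a list describes it and is not a test. All 10 were found among the 21955 genes counted in each library. All 10 passed the filter on low counts, as did 11903 genes in all. Neutrophils of the dura mater, the tough membrane around the brain, were taken from wild-type mice exposed to a social threat, and their poly-A RNA was sequenced. The 2 groups were 3 libraries labelled male and 3 labelled female. Both groups were exposed, no library came from unexposed mice, and the labels give no age, strain or statement of separate animals.

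C-type lectin receptors are membrane proteins of myeloid cells that bind sugars, lipids, crystals or ligands of dying cells. Activating members pass a signal to the kinase Syk, either through a tyrosine motif in their own tail or through the adaptor chains Fcer1g and Tyrobp, and from Syk to Card9 and NF-kB. Inhibitory members carry an immunoreceptor tyrosine-based inhibitory motif (ITIM) that recruits the phosphatases Ptpn6 and Ptpn11. In neutrophils these receptors are known for sensing fungi, mycobacteria and cell debris, and for setting the threshold of the oxidative and cytokine response.

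The coding sequences show which receptors hold such a signalling motif, and the stretches below show the tail motifs of Clec7a, Clec4a2 and Clec12a and the sugar-binding codons of Clec4e, Clec4n and Clec4b2. The sorting of receptors into activating and other receptors follows what is known of each, not these matches. They were read from the GENCODE M21 transcripts (build GRCm38), are written 5′ to 3′ on the coding strand with bases counted from the start codon, and have the motif in capitals. The ITIM was searched as codons for serine, isoleucine, leucine or valine, then any codon, tyrosine, 2 of any kind, and isoleucine, leucine or valine. It was found at codon 5 of Clec4a2 and of Clec12a. A search of the first 60 codons also matched at codon 39 of Clec4n and codon 51 of Clec4a3, and matched in 8.47% of 21501 coding genes. The search did not mark where the tail ends, so the matches at codons 39 and 51 are not shown to lie in it.
Clec4a2, coding bases 1 to 45: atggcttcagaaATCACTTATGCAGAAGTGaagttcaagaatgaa
Clec12a, coding bases 1 to 45: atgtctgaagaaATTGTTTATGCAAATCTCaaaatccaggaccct
The single tyrosine motif of Clec7a, called a hemITAM, lay at codon 11. It was searched as codons for aspartate, glutamate, aspartate, glycine and tyrosine, then 2 of any kind and leucine. Of the 21501 coding genes 2 matched this in their first 60 codons, Clec7a and Clec1b, the platelet receptor of podoplanin.
Clec7a, coding bases 16 to 69: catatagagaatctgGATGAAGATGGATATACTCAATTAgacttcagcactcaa
Clec4e, Clec4n and Clec4b2 held the codons for glutamate, proline and asparagine (EPN) that mark mannose-binding lectin domains, searched in frame as GAA or GAG, then CCN, then AAC or AAT. Of all coding genes 3.7% held them. No match was found in the other 7 receptors, which says only that these letters are not in the coding sequence used.
Clec4e, coding bases 490 to 528: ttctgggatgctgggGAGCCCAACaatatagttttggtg
Clec4n, coding bases 487 to 525: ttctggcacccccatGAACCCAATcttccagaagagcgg
Clec4b2, coding bases 487 to 525: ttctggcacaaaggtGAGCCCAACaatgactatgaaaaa

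The libraries held 17098026 to 20778410 counts. Y-linked transcripts went against the label female: the 4 genes Ddx3y, Eif2s3y, Kdm5d and Uty summed to 306 to 317 CPM (counts scaled to library size) in the libraries labelled male and 313 to 329 CPM in those labelled female. Groups are therefore named by their labels, and no direction below is a statement about female and male mice. Female replicate 3 stood farther from the other libraries labelled female (chi-square per degree of freedom 13.4 and 16.5) than those did from each other (5.14). Mitochondrially encoded genes took 12 ± 1.21% of counts in the libraries labelled male and 7.43 ± 1.04% in those labelled female (SD, n = 3). Neutrophil markers summed to 60020 to 66080 and 67340 to 85940 CPM.

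Of the 10 receptors, Clec4e and Clec5a were higher in the libraries labelled female and none was lower by edgeR's quasi-likelihood test at an adjusted p under 0.05. Of all 11903 genes tested 13.9% were called, 7.29% of the tested genes as higher and 6.62% as lower, so the 2 of 10 receptors called stand near that background. An unadjusted p under 0.05 was found for 5 of the 10, all of them higher, against 27.6% of all genes tested (14.3% higher and 13.3% lower). DESeq2 and limma-voom each called 2 higher and none lower. The median log2 fold change of the 10 was 0.09, against 0.0016 for all genes tested. The other 8 receptors did not pass, and their 95% intervals are given with them below. A positive log2 fold change means a higher level in the libraries labelled female, and CPM are scaled by TMM normalization.

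**Figure D1:**
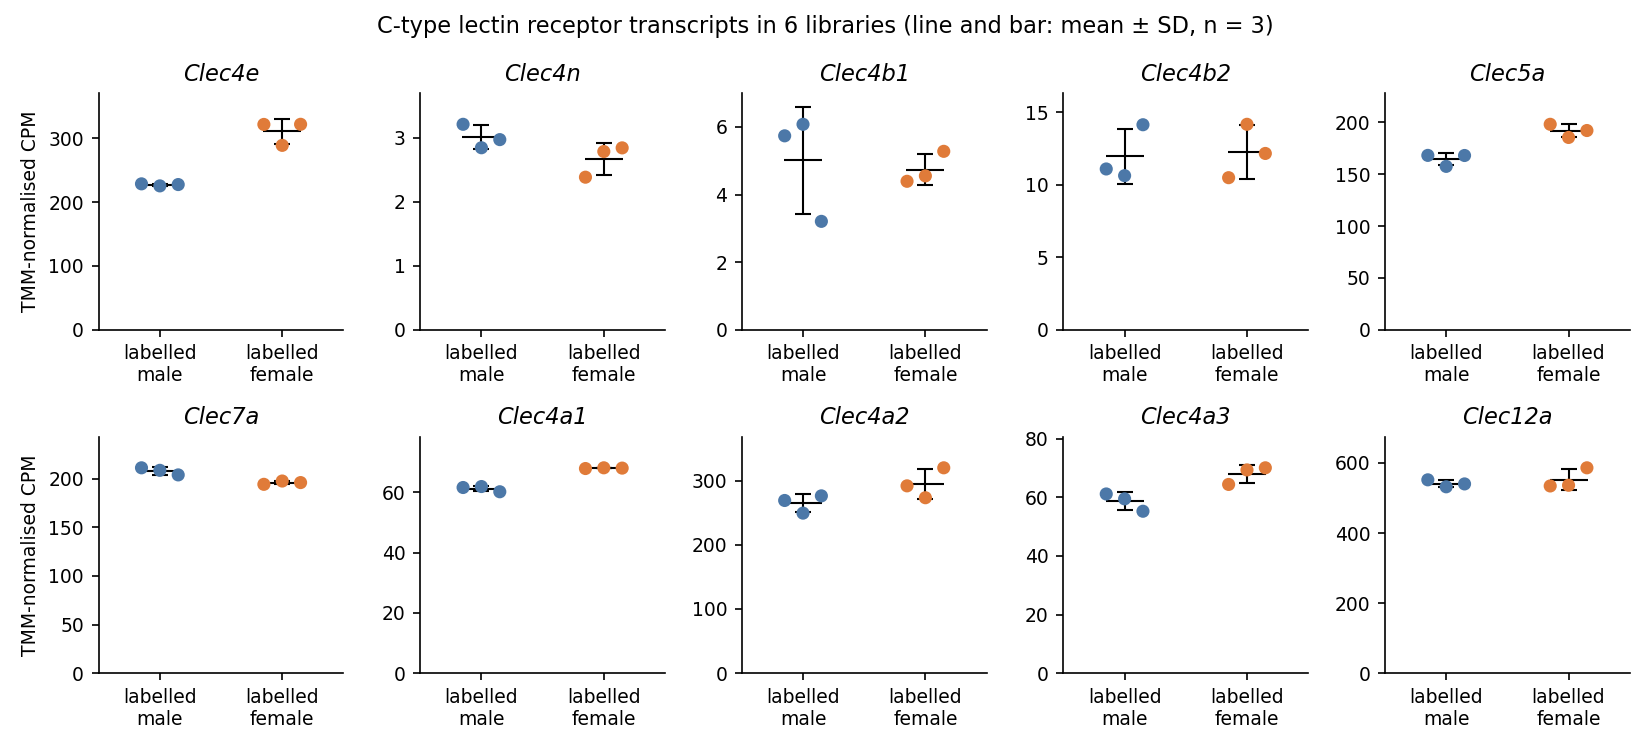
TMM-normalised CPM of each receptor in the 3 libraries labelled male and the 3 labelled female, with the mean and SD of each group. The points of Clec4e and Clec5a labelled female all lie above those labelled male, and those of Clec12a overlap.

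Clec4e, known as Mincle, binds mycobacterial cord factor and the nuclear protein Sap130 of dead cells and signals through Fcer1g. It stood at 229, 225 and 227 CPM in the libraries labelled male. In those labelled female it stood at 322, 289 and 322 CPM. The groups were 227 ± 1.62 and 311 ± 19.0 CPM (SD, n = 3), and the lowest library labelled female lay above the highest labelled male. It rose 1.36-fold (log2 0.44, SE 0.059, 95% interval 0.32 to 0.57; adjusted p = 2.22e-05 by edgeR). The call was kept without any one library (log2 0.42 to 0.50, adjusted p from 4.87e-08 to 0.000891). Among all genes tested, 89.4% had a smaller absolute change.

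Clec5a, a receptor that pairs with Tyrobp and is known as a sensor of flaviviruses, was read at 168, 158 and 168 CPM in the libraries labelled male. The libraries labelled female held 198, 185.5 and 192 CPM. The ranges did not overlap, and the groups stood at 165 ± 6.10 and 192 ± 6.33 CPM (SD, n = 3). The rise was 1.16-fold (log2 0.21, SE 0.059; adjusted p = 0.0185 by edgeR). Leaving out male replicate 1, 2 or 3 ended the call by edgeR (adjusted p = 0.0555, 0.125 and 0.0629), as did leaving out female replicate 1 (0.0671). Over all 6 omissions the log2 change was 0.18 to 0.24.

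Clec7a, known as Dectin-1, is the receptor of fungal beta-glucans and the only one of the 10 in which the hemITAM shown above was found. It was at 211, 209 and 204 CPM in the libraries labelled male and at 194, 198 and 196 CPM in those labelled female. Every library labelled female lay below every library labelled male, but the distance was small: the groups were 208 ± 3.66 and 196 ± 1.70 CPM. It did not pass (log2 -0.09, 95% interval -0.21 to 0.02; adjusted p = 0.282 by edgeR).

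The remaining activating receptors were scarce. Clec4n, known as Dectin-2, binds fungal mannans and had 2.84 to 3.21 CPM in the libraries labelled male and 2.38 to 2.84 CPM in those labelled female. These rest on 45 to 57 counts per library, and the groups were kept apart by 2.839 against 2.841 CPM. Its log2 change was -0.18 with a 95% interval of -0.67 to 0.31 (adjusted p = 0.676 by edgeR), so neither a rise nor a fall within that interval can be told. Clec4b1 and Clec4b2, Fcer1g-coupled receptors of dendritic cells and monocytes, overlapped between the groups. Clec4b1 was at 3.21 to 6.08 CPM in the libraries labelled male and 4.39 to 5.28 CPM in those labelled female (log2 -0.09, 95% interval -0.55 to 0.37). Its log2 change was -0.33 without male replicate 3 and 0.07 without male replicate 2. Clec4b2 was at 10.6 to 14.1 and 10.5 to 14.2 CPM (log2 0.03, 95% interval -0.27 to 0.33), with log2 changes of -0.08 to 0.17 when 1 library was left out.

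Among the inhibitory receptors and those without a motif of this kind in the tail, none passed by edgeR, and 3 of 4 had an unadjusted p under 0.05, as did 27.6% of all genes tested. Clec12a, the inhibitory receptor of uric acid crystals, had the highest CPM of the 10 receptors before correction for exonic length. It held 552, 532 and 540 CPM in the libraries labelled male and 534, 536 and 586 CPM in those labelled female. The ranges overlapped, and its log2 change of 0.02 had a 95% interval of -0.10 to 0.14 (adjusted p = 0.86 by edgeR). Without female replicate 3 the log2 change was -0.02.

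Clec4a2, the ITIM-bearing receptor known as DCIR, was at 269, 249 and 276 CPM in the libraries labelled male. It reached 292, 273 and 320 CPM in those labelled female, where replicate 2 fell within the range of the other group. Its log2 change of 0.15 (95% interval 0.012 to 0.28) did not pass after adjustment (adjusted p = 0.143 by edgeR). Without female replicate 3 the log2 change was 0.09.

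Clec4a1 and Clec4a3 are relatives of Clec4a2 encoded beside it, in whose first codons no ITIM was found at the position it takes in Clec4a2. Clec4a1 was at 61.55, 61.9 and 60.1 CPM in the libraries labelled male and at 67.8, 68.1 and 68.0 CPM in those labelled female. Its ranges did not overlap, yet it did not pass over all genes (log2 0.14, SE 0.063; adjusted p = 0.146 by edgeR). Clec4a3 was at 61.1, 59.4 and 55.2 CPM against 64.35, 69.29 and 70.02 CPM, again without overlap. With a log2 change of 0.20 (SE 0.068) it lay just outside the threshold (adjusted p = 0.0513 by edgeR), and inside it without a filter on low counts (0.0377), without female replicate 1 (0.0407) or without female replicate 3 (0.0469).

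**Figure D2:**
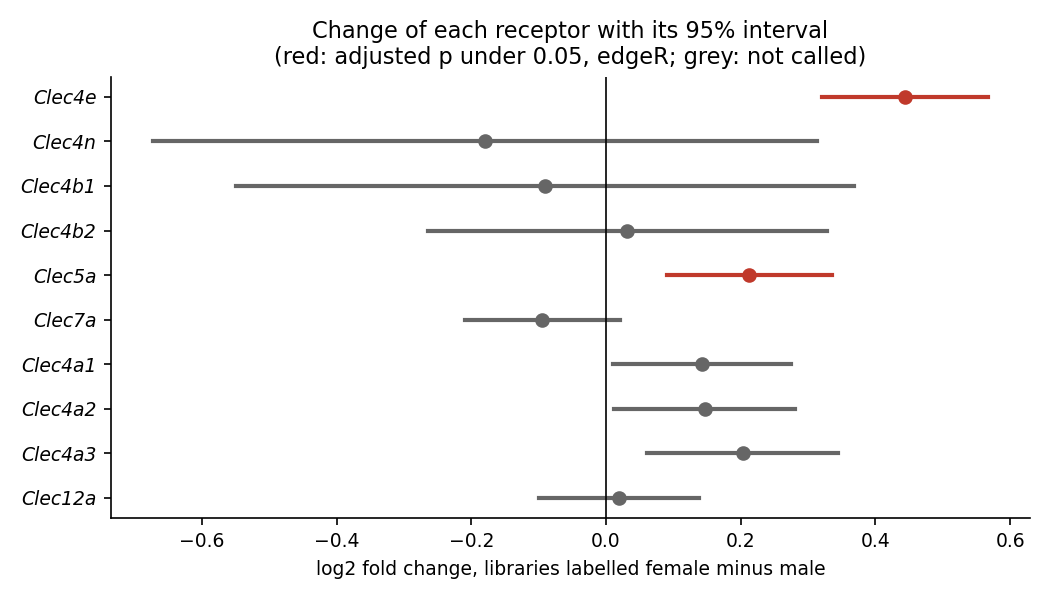
Log2 fold change of each receptor, libraries labelled female minus male, with its 95% interval; red marks an adjusted p under 0.05 by edgeR. Clec4e lies farthest to the right at 0.44, and the intervals of the scarce Clec4n and Clec4b1 are the widest.

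In all, ranges of the groups did not overlap for 6 of the 10 receptors, 4 higher (Clec4e, Clec5a, Clec4a1 and Clec4a3) and 2 lower (Clec7a and Clec4n) in the libraries labelled female. Of all genes tested 31.1% had ranges that did not overlap, 17.1% higher and 14.0% lower.

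Summed over the 10 receptors, transcripts took 0.153 ± 0.00084% of all counts in the libraries labelled male and 0.171 ± 0.00070% in those labelled female (SD, n = 3). In TMM-normalised CPM the sums were 1514 to 1571 and 1640 to 1774. Clec4e made up 14.7 ± 0.176% of these receptor counts in the libraries labelled male and 18.3 ± 0.724% in those labelled female. The share of Clec12a was 35.0 ± 0.183% and 32.4 ± 0.735%, and that of Clec7a 13.5 ± 0.32% and 11.5 ± 0.499%. The ratio of summed activating counts (Clec4b1, Clec4b2, Clec4e, Clec4n, Clec5a and Clec7a) to the summed counts of the other 4 was 0.666, 0.677 and 0.665 in the libraries labelled male and 0.763, 0.732 and 0.700 in those labelled female. The difference between groups was a log2 of 0.13, and -0.03 with Clec4e left out of the sum, an omission chosen after seeing the data. With the mean of the log2 CPM of each receptor in place of summed counts, which weights scarce receptors equally, it was -0.07.

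Levels were compared between genes per kilobase of exon, in CPM per kb averaged over the 6 libraries. Clec12a (98.9 CPM per kb, 96.2 to 106 over libraries) and Clec4a2 (95.7, 85.2 to 109) came first, and their ranges overlapped. Clec7a followed at 76.6 CPM per kb (73.6 to 80.1), apart from both neighbours in this order. Clec4e (54.2, 45.4 to 64.8), Clec4a3 (47.7, 41.6 to 52.8), Clec5a (46.4, 41.0 to 51.6) and Clec4a1 (41.5, 38.6 to 43.7) overlapped in sequence. Clec4b2 (10.3, 8.92 to 12.1), Clec4b1 (6.22, 4.09 to 7.75) and Clec4n (2.00, 1.68 to 2.26) came last, with no overlap between neighbours. The exonic length is the union of all annotated exons, so isoforms in use here could alter this order.

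**Figure D3:**
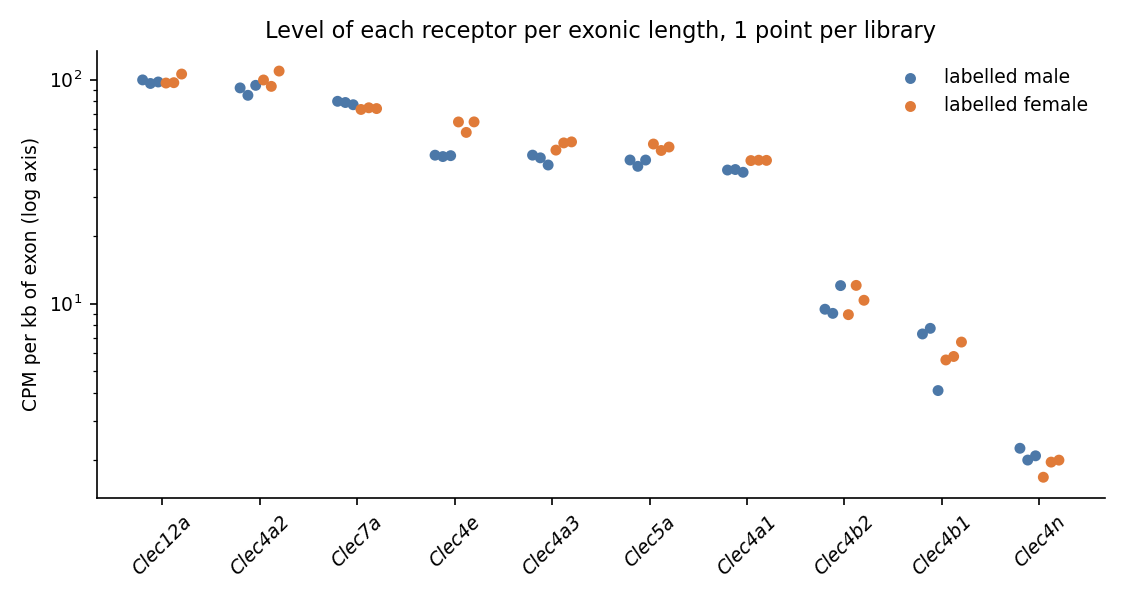
Level of each receptor in CPM per kb of exon on a log axis, 1 point per library, blue for those labelled male and orange for those labelled female. Clec12a and Clec4a2 lie near 100 CPM per kb and Clec4n near 2.

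Shared sequence between these paralogs could move reads from one to another. Their coding sequences were 56.4% to 85% identical pairwise, Clec4b1 and Clec4a2 being the closest pair. No stretch of 100 bases in the annotated transcripts of 9 of the 10 receptors occurred in another annotated gene. In Clec4a2, 64 such stretches, 2.14% of its total, also occurred in its neighbour Clec4a4, which had under 1 CPM in every library. Only exact stretches of 100 bases were compared, so shorter reads and reads aligned with mismatches were not covered. The treatment of reads that fit more than one gene is unknown here.

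All 10 genes lie on chromosome 6. In the GENCODE order Clec4a1, Clec4a3, Clec4a4, Clec4b1, Clec4a2, Clec4b2, Clec4n, Clec4d and Clec4e follow each other as C-type lectin genes, and Clec4d is not analysed here. Of the 7 receptors tested in this row Clec4e alone passed, as higher; Clec4a4 was too scarce to test. Clec12a and Clec7a lie farther along the chromosome, among lectin genes of natural killer and dendritic cells. Clec5a lies apart, before this row. Between Clec12a and Clec7a stands Clec9a, a receptor of cross-presenting dendritic cells for exposed actin, which fell (log2 -0.76, SE 0.125; adjusted p = 0.000255 by edgeR) while Clec12a and Clec7a on either side of its cluster did not pass.

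**Figure D4:**
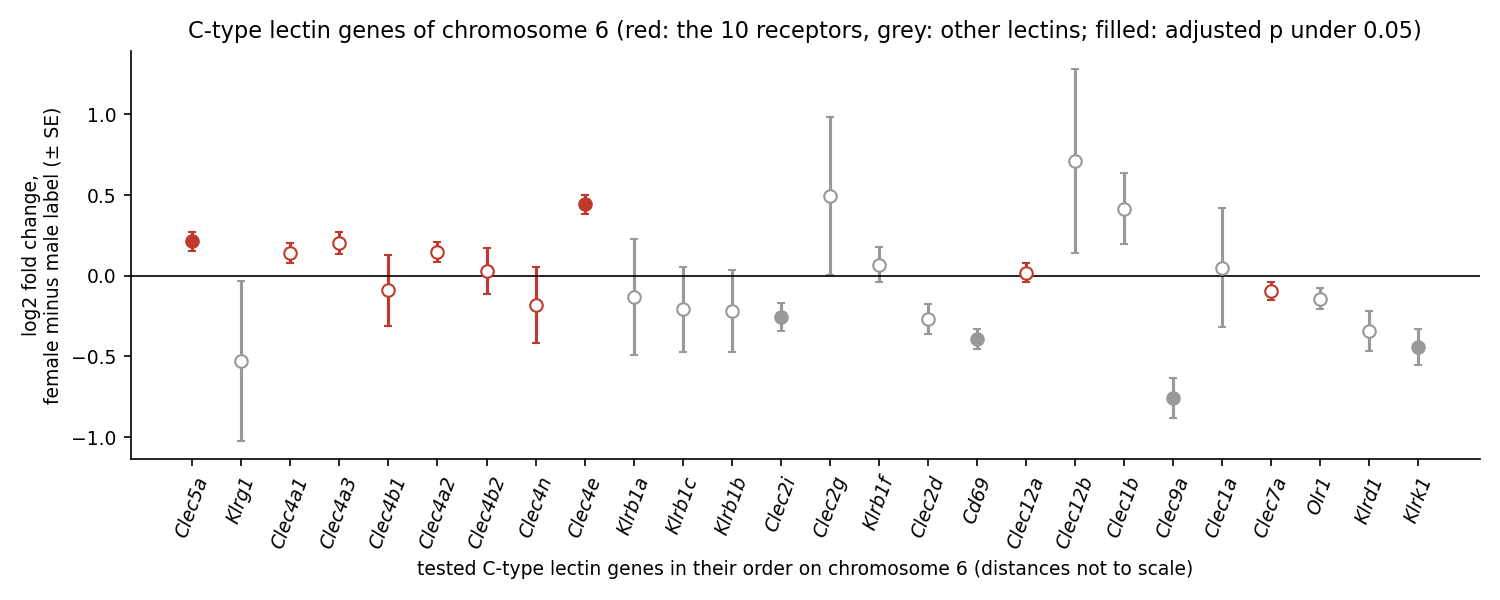
Log2 fold change ± SE of the tested C-type lectin genes in their order on chromosome 6, the 10 receptors in red and other lectins in grey, filled where the adjusted p was under 0.05. Clec4e is the highest filled point at 0.44 and Clec9a the lowest at -0.76.

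Promoters were read because the receptors share a myeloid expression pattern and differ in whether they changed. The 250 bases before the annotated start were taken from RefSeq (build GRCm38.p6, which is not the build of the counts) for 9 of the 10 receptors. Those of Clec4e and Clec5a, which rose, and of Clec12a, which overlapped between groups, are shown. Capitals mark matches on either strand to GAGGAA (core of the myeloid factor PU.1), TTNNGNAA (C/EBP), TGANTCA (AP-1), copies of GAAA spaced by 2 bases (interferon-stimulated response element) or GGG and CC spaced by 5 bases (NF-kB), and adjoining matches run together.
Clec4e, chr6:123289872-123290121, minus strand: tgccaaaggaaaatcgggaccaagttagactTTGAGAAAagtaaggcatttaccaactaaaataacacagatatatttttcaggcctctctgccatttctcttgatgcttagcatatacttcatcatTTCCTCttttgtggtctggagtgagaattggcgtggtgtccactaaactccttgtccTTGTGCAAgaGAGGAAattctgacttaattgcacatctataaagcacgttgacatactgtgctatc
Clec5a, chr6:40585806-40586055, minus strand: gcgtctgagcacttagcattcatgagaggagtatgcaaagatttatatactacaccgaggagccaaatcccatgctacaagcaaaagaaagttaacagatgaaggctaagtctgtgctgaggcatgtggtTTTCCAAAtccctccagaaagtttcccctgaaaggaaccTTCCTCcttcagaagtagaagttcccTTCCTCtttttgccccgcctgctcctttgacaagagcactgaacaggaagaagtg
Clec12a, chr6:129349994-129350243, plus strand: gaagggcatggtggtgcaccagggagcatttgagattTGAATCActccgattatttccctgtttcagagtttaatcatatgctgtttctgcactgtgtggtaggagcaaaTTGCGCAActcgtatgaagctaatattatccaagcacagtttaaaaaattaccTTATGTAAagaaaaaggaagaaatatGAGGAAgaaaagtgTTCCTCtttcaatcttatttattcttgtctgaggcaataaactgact
GAGGAA was found in 8 of the 9 receptors, Clec4a2 being the exception, against 25.9% of 27025 genes with a promoter window of the same length. TTNNGNAA was found in 5 of 9 (Clec4b2, Clec4e, Clec5a, Clec4a2 and Clec12a), against 40.3% of genes. In Clec4e the pair lay side by side, TTGTGCAA at 66 to 59 and GAGGAA at 56 to 51 bases before the start. The AP-1 letters occurred in Clec12a (7.82% of genes), the interferon response letters in Clec4b1 (3.46% of genes) and the NF-kB letters in Clec4a1 (48.7% of genes). Receptors that passed and that did not pass both held the PU.1 letters. A match describes the letters and is not a measured binding site.

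Of 40 other C-type lectin genes in the files 32 were tested. By edgeR 5 were lower and none higher in the libraries labelled female, against 6.62% lower and 7.29% higher among all genes tested. Of the 32, 13 had an unadjusted p under 0.05, against 27.6% of all genes tested. The median log2 fold change of the 32 was -0.21. Cd69, an activation marker that retains cells in tissue, fell 1.31-fold from 269 ± 14.2 to 206 ± 9.83 CPM (adjusted p = 0.000124). Clec9a fell 1.69-fold from 15.6 ± 1.27 to 9.30 ± 0.679 CPM, and Clec10a, a galactose-binding receptor of dendritic cells and macrophages, fell 1.37-fold. Klrk1, a stress-ligand receptor of natural killer cells, fell 1.36-fold (adjusted p = 0.0106), which did not pass once male replicate 2 was left out (0.0689). Clec2i was the fifth (adjusted p = 0.0488 by edgeR, 0.055 by DESeq2), and passed on 2 of the 6 omissions, those of male replicate 3 and female replicate 2. By DESeq2 1 of these genes was called higher. The number lower was 3 without male replicate 2, and the number higher was 1 without male replicate 1 and 2 without female replicate 3.

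The chain from receptor to nucleus was followed gene by gene. Of 36 signalling adaptors and kinases 2 were higher, 4 lower and 30 did not pass by edgeR, with a median log2 fold change of 0.0064. Of all genes tested 7.29% were called higher and 6.62% lower, so these counts stand near that background. Fcer1g, the adaptor of Clec4e and Clec4n, stood at 398 ± 28.1 and 441 ± 58.1 CPM (log2 0.14, 95% interval -0.02 to 0.30; adjusted p = 0.253). Its log2 change was 0.03 without female replicate 3 and 0.08 without male replicate 2. Tyrobp, the adaptor of Clec5a, had 426 ± 18.7 and 417 ± 46.7 CPM (log2 -0.04, adjusted p = 0.747). Syk had 355 ± 9.45 and 359 ± 11.7 CPM (log2 0.0078, 95% interval -0.11 to 0.12). Card9, which links Syk to NF-kB, had 139 ± 1.56 and 130 ± 12.85 CPM (log2 -0.10, adjusted p = 0.347). Without female replicate 3, Tyrobp and Card9 were called lower (log2 -0.14, adjusted p = 0.039, and -0.18, adjusted p = 0.0105).

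The 6 genes of this chain that passed were 4 kinases, a protease and a transcription factor. The Src-family kinase Fgr rose 1.24-fold to 267 ± 28.3 CPM (adjusted p = 0.00409), and the lipid kinase Pik3cg rose 1.16-fold (adjusted p = 0.0272), which ended on leaving out male replicate 1, 2 or 3 (0.107, 0.0845 and 0.11) or female replicate 1 (0.148). Ikbkb, the kinase that releases NF-kB, fell 1.25-fold from 198 ± 1.07 to 160 ± 3.69 CPM (adjusted p = 0.000559). Fyn, a Src-family kinase abundant in lymphocytes, fell 1.24-fold but missed the threshold when male replicate 3 was left out (adjusted p = 0.0519). Malt1, the protease that acts with Card9 and Bcl10, fell 1.17-fold (adjusted p = 0.0314), and did not pass with male replicate 1, 2 or 3 or female replicate 2 left out (0.071 to 0.149). Nfatc2, a calcium-dependent transcription factor, fell 1.31-fold (adjusted p = 0.0329), and passed on 1 of the 6 omissions, that of female replicate 2 (0.0258). The number of this list called higher was 1 without male replicate 1, 2 or 3 and on leaving out female replicate 1, and 6 without female replicate 3. The number called lower was 2 without male replicate 1 or 2, 1 without male replicate 3 and 7 without female replicate 3.

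Of 17 phosphatases and negative regulators 3 fell and none rose by edgeR, against 6.62% lower and 7.29% higher among all genes tested. Of the 17, 6 had an unadjusted p under 0.05, against 27.6% of all genes tested. Ptpn6 and Ptpn11, the phosphatases that ITIMs recruit, did not pass, nor did the lipid phosphatase Inpp5d. Ptpn6 had 357 ± 6.38 and 352 ± 30.5 CPM (log2 -0.03, 95% interval -0.16 to 0.10). Ptpn11 had 101 ± 4.21 and 98.3 ± 2.19 CPM (log2 -0.04, 95% interval -0.17 to 0.08). Inpp5d had 186 ± 5.31 and 184 ± 1.86 CPM (log2 -0.02, 95% interval -0.14 to 0.10). Tnfaip3, the deubiquitinase A20 that restrains NF-kB, fell 1.33-fold (adjusted p = 5.22e-05). The ubiquitin ligase Cblb, which limits Syk signalling, fell 1.35-fold (adjusted p = 0.00344). Ptpn22 fell 1.19-fold (adjusted p = 0.0125), a call that ended with male replicate 1 or 2 left out (0.0742 and 0.0748). Its log2 change was -0.28 to -0.22 with 1 library left out. Without female replicate 3, 3 genes of this list rose.

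Receptors that work beside the lectins were tested next. Of 17 tested partner receptors 7 rose and 1 fell by edgeR, against 7.29% and 6.62% of all genes tested. Their median log2 fold change was 0.12. Tlr4, the endotoxin receptor, rose 1.40-fold from 16.9 ± 1.43 to 23.8 ± 2.73 CPM (adjusted p = 0.00478). Fcgr4, an Fcer1g-coupled receptor of antibody, rose 1.39-fold, and the integrin chain Itgam, which joins Clec7a at fungal particles, rose 1.24-fold from 429 ± 19.4 to 535 ± 69.3 CPM. The call of Itgam ended on leaving out male replicate 2 (adjusted p = 0.0509). Fcgr1, the high-affinity antibody receptor, fell 1.62-fold from 48.55 ± 2.36 to 30.1 ± 3.90 CPM (adjusted p = 1.20e-05). The number that rose was 4 without male replicate 1, 2 without male replicate 2 and 3 without male replicate 3.

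Genes known to be induced downstream of these receptors went both ways. Of 19 tested output genes 5 rose and 8 fell by edgeR, against 7.29% and 6.62% of all genes tested. Their median log2 fold change was -0.28. Il1b, which encodes the inflammasome-processed cytokine interleukin 1 beta, rose 1.99-fold from 70.5 ± 3.24 to 141 ± 12.1 CPM (adjusted p = 4.31e-09). Tnf fell 2.01-fold from 193 ± 21.7 to 96.7 ± 10.5 CPM (adjusted p = 3.25e-08). The early transcription factor Egr1 fell 1.46-fold and the monocyte chemokine Ccl2 fell 1.57-fold. Many other pathways induce the same genes, and the part of the receptors in these values was not tested. Of 10 genes of endogenous ligands 2 rose and 3 fell by edgeR, again against 7.29% and 6.62% of all genes tested. Without male replicate 2 none of these rose by edgeR, without male replicate 3 1 rose, and without male replicate 1 or 3 1 fell.

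**Figure D5:**
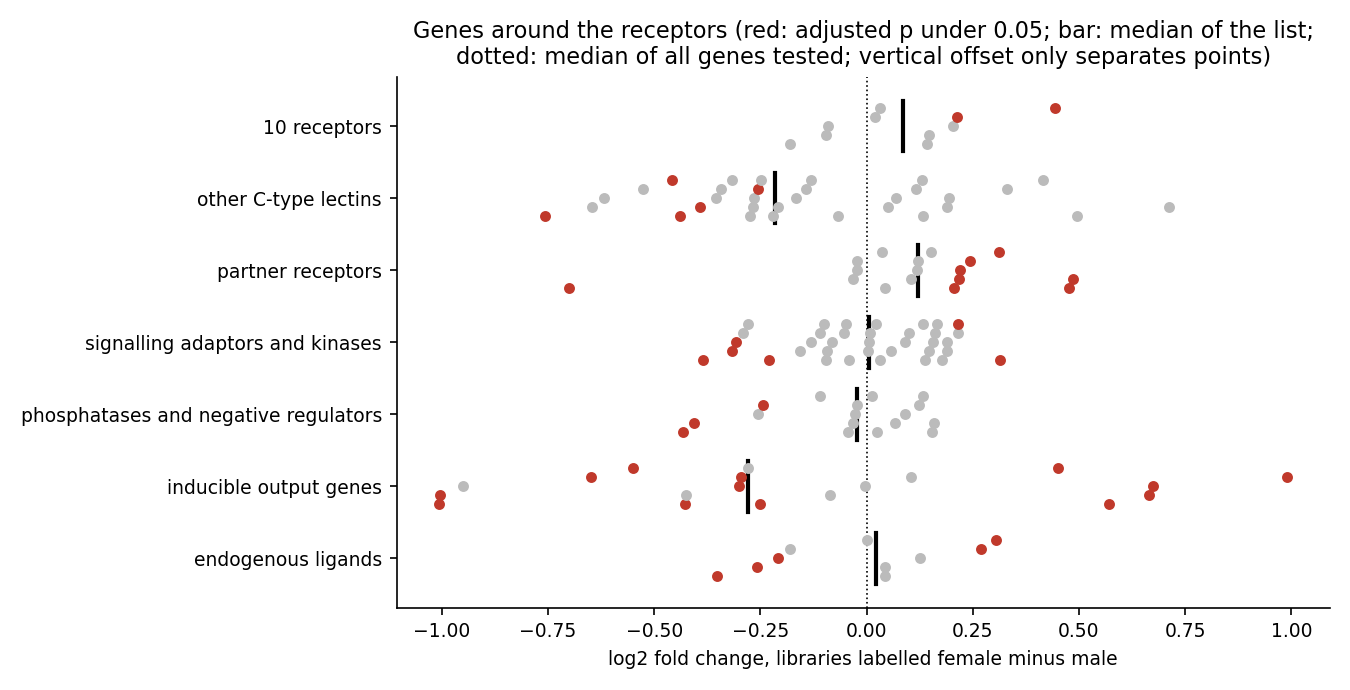
Log2 fold change of each tested gene in the lists around the receptors, red where the adjusted p was under 0.05, with the median of each list as a bar and that of all genes tested as a dotted line. The 10 receptors lie between -0.18 and 0.44, and the output genes spread from -1.01 to 0.99.

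Genes whose values ran closest to those of the called receptors were sought over the 6 libraries, by the root mean square difference of log2 CPM after centring each gene. For Clec4e these were Cmtm6 (0.0314), Rin2 (0.0362) and Nudt4 (0.0365). For Clec5a they were I830077J02Rik (0.00986), Ate1 (0.0158) and Ttyh3 (0.0169). Among 11903 genes some will lie close by number alone, and the 6 libraries share the difference between the groups.

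Several receptors are also made by monocytes, macrophages and dendritic cells, and transcripts of those cells were present. Of 20 monocyte and macrophage markers 3 rose and 2 fell by edgeR, against 7.29% and 6.62% of all genes tested. Their sum was 2544 to 2655 CPM in the libraries labelled male and 2861 to 2911 CPM in those labelled female. None of the 20 was at 0 in every library, and 1 had a mean under 1 CPM. Csf1r, the growth factor receptor of this lineage, had 219 ± 1.28 and 217 ± 6.37 CPM. Ccr2 of classical monocytes rose from 611 ± 28.1 to 881 ± 57.9 CPM. Ly6c2, also of classical monocytes, had 1156 ± 23.9 and 1129 ± 74.8 CPM and did not pass (log2 -0.04). The others called in this list were Adgre1 and Vcan, which rose, and Cd68 and Fcgr1, which fell. Fcgr1 was also counted among the partner receptors above. C1qa of tissue macrophages had 1.66 to 5.26 CPM over the libraries. Of 14 tested dendritic cell markers 10 fell and none rose by edgeR, against 6.62% lower and 7.29% higher among all genes tested. Of the 14, 12 had an unadjusted p under 0.05, against 27.6% of all genes tested. Clec9a and Clec10a, among the 10 that fell, were also counted among the other C-type lectins above. The sum over all 15 dendritic cell markers was 1083 to 1110 and 786 to 808 CPM. Of the 16 neutrophil markers in the files 10 rose and 1 fell by edgeR, against the same 7.29% and 6.62%. Ly6g was among those that rose (166 ± 12.4 to 237 ± 36.05 CPM). Of 11 B cell markers 6 fell and none rose by edgeR, against 6.62% lower and 7.29% higher among all genes tested. Of these 11, 10 had an unadjusted p under 0.05, against 27.6% of all genes tested. The B cell markers summed to 294 to 361 and 184 to 252 CPM. Of 7 tested erythroid markers 4 rose and none fell by edgeR, against the same 7.29% and 6.62%. The sum over all 8 was 19.4 to 24.9 and 36.4 to 66.2 CPM. In bulk RNA, fewer cells of a type and less RNA per cell cannot be told apart. The part of any of these cells in the values of Clec4e and Clec5a was not tested.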

How the data were processed

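Poly-A RNA of 6 libraries was sequenced. Per the submitters' processing notes, the tools included HISAT2 2.0.5 and cutadapt 1.15 and the genome build was GRCm39. The authors deposited raw counts per Ensembl gene, with no normalization. Which tool counted the reads, and whether by strand, is not given in the sources used. Symbols, exonic lengths and coding sequences came from GENCODE M21 (GRCm38), which named 21847 of 21955 identifiers, so gene coordinates are not printed.

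Libraries were grouped by the sex in their labels. The labels do not tie them to individual mice, so the p-values rest on a spread among libraries that could be purely technical. The test was the quasi-likelihood test of edgeR 4.0.16 under R 4.3.3 (TMM factors, genes kept by filterByExpr at minimum count 10, Benjamini-Hochberg adjustment over all genes tested, threshold 0.05, group as only term). SEs came from the change and its F statistic. With 17098026 to 20778410 counts per library the common biological coefficient of variation was 0.0696. The fit was tested on simulated counts.

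The receptors and all lists were chosen with earlier results of these data known. Beside the receptors, the text names up to 4 called genes per list by adjusted p and 6 fixed signalling genes. Clec2i, Malt1, Nfatc2, Ptpn11 and single marker genes were chosen after their values were seen. For each called receptor with a mean of at least 10 CPM, the 3 nearest patterns were sought. Of 271 list entries 266 were in the files. Alternatives were DESeq2 1.42.0, limma-voom (limma 3.58.1), other size factors, other filters, a replicate block, leaving out each library and, chosen after seeing the data, leaving out mitochondrially encoded genes or, from the receptor ratio, Clec4e.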

Additional observations from a re-analysis of the deposited data

How the results depend on the processing

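Clec4e stayed called and higher under every alternative, and no receptor was called lower under any. Clec5a lost its call only when 1 of 4 libraries was left out, with log2 changes of 0.183 to 0.24 over all 6 omissions. Clec4a3 gained a call without a filter (log2 0.213), and ranged from 0.163 to 0.24 with 1 library left out. The number of receptors called higher was 1 to 3 with 1 library left out. A fit to 5 libraries has fewer samples, and the cause of single losses was not tested.

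The receptor ratio set activating counts against those of the remaining receptors. Its log2 difference between groups was -0.065 with mean log2 CPM, -0.0307 without Clec4e (chosen after seeing the data) and 0.0502 without Clec12a. With DESeq2, without a filter, or with the replicate block, 1 other C-type lectin was higher. The number lower was 8 without a filter and 8 with the block. Signalling genes called higher numbered 5 without a filter and 4 with the block, and 1 negative regulator was higher without a filter.

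With 1 library left out, 439 to 1439 of all genes were higher and 467 to 1269 lower, the fewest without male replicate 3 and the most without female replicate 3. Ranges for higher and lower calls were 0 to 2 and 3 to 6 for other C-type lectins, 1 to 6 and 1 to 7 for signalling genes, 0 to 3 and 2 to 3 for negative regulators, 2 to 7 and 1 to 1 for partner receptors, 5 to 5 and 6 to 8 for output genes, and 0 to 2 and 1 to 3 for ligands.

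Deviations from the group means were weakly correlated between libraries of the same replicate number (r of -0.0386, 0.0646 and 0.0634 over 11903 genes). These values cannot tell whether the numbers mark pairs or batches, which was not tested. With the replicate block 1007 genes were higher and 914 lower, and the receptors called higher were 2, with log2 changes of 0.442 for Clec4e and 0.213 for Clec5a. Counts of Clec4n and Clec4b1 were low, at most 107 per library.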
